A study of Mus musculus with 4 samples.

Results

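Glycolysis and hypoxia-response genes were examined in mouse embryonic fibroblasts (MEFs) cultured with or without pigment epithelium-derived factor (PEDF), a secreted protein of the serpin family. The genes were chosen by name as 36 symbols, comprising the glucose and lactate transporters, the enzymes of glycolysis and their isoenzymes, regulators of glycolytic flux, the oxygen-sensing genes Hif1a, Egln1 and Egln3, and further targets of hypoxia-inducible factor (HIF). They occupied 37 of the 55487 rows of counted genes, because Aldoa is given to 2 rows. The choice went by name and function, with earlier results of these data known.

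Glycolysis converts glucose to pyruvate in the cytosol, and lactate dehydrogenase then converts pyruvate to lactate, which leaves the cell. HIF is a transcription factor whose alpha subunit, encoded by Hif1a, is made continuously and degraded after prolyl hydroxylases of the Egln family have used oxygen to modify it. When oxygen is scarce the protein escapes degradation and raises transcription of most glycolytic enzymes, so the amount of Hif1a mRNA need not follow HIF activity, while mRNAs such as Pdk1, Bnip3, Car9, Ankrd37 and Egln3 are widely used as its readouts.

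The MEFs were wild-type primary cells from C57BL/6J embryos, grown under room air, and their passage was given as 2 in the sample labels and as P3 in the published text. In each of 2 experiments, with embryos of its own, 1 culture received PEDF at 100 ng/mL for 24 h and 1 control culture did not, which gave 2 control libraries and 2 PEDF libraries of polyadenylated RNA. The libraries held 14722848 to 18144640 counts. Levels are given as CPM, the count as a share of the TMM-scaled library, in units of 1e-06, and between genes as the deposited TPM, which is corrected for gene length. A log2 fold change is that of CPM in PEDF-treated MEFs over control MEFs. In each library 3 counts, the number that a count of 0 allows, corresponded to 0.168 to 0.203 CPM, a limit that covers counting error only. Marker mRNAs of fibroblasts were abundant (44245 to 57362 CPM summed over 10 genes), compared with 83.6 to 131 CPM for 6 macrophage markers, 42.6 to 56.7 CPM for 6 epithelial markers and 16.0 to 16.7 CPM for 6 endothelial markers, of which Tie1 was at 0. Skeletal muscle markers summed to 371 and 411 CPM in the control and PEDF libraries of experiment 1 and to 442 and 474 CPM in those of experiment 2, and neural markers to 96.2 to 108 CPM. In bulk RNA, fewer cells of a type and less RNA per cell cannot be told apart.

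The glycolytic program of these MEFs was carried by a small number of abundant isoenzymes. Pkm, pyruvate kinase, had the highest level, with 843 and 858 TPM in the control libraries and 822 and 874 TPM in the PEDF libraries. Aldoa, aldolase, followed with 582 to 619 TPM, Ldha, the lactate dehydrogenase subunit that predominates in muscle, with 554 to 642 TPM, and Eno1, enolase, with 568 to 600 TPM. The control and PEDF ranges of TPM overlapped for Pkm and Aldoa, while both PEDF libraries were above both control libraries for Ldha and below them for Eno1. The order of Aldoa, Ldha and Eno1 among themselves was not the same in every library. Next came Pgk1, phosphoglycerate kinase, at 419 to 464 TPM, then Tpi1, triosephosphate isomerase, at 311 to 377 TPM and Pgam1, phosphoglycerate mutase, at 310 to 331 TPM, whose ranges overlapped.

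Upstream steps were lower. Gpi1, glucose-6-phosphate isomerase, was at 120 to 127 TPM and Slc2a1, the glucose transporter GLUT1, at 81.7 to 97.5 TPM. Hexokinase, the step that traps glucose in the cell, was divided between Hk1 (53.0% of the summed TPM of the step, mean of 4 libraries) and Hk2 (47.0%), and phosphofructokinase, the main committed step, between Pfkl (46.1%), Pfkm (39.9%) and Pfkp (14.0%). Other steps had a predominant isoenzyme. The main Aldoa row made up 99.2% of the aldolase TPM, with Aldoc at 1.40 to 2.78 CPM. Of the TPM of Eno1 and Eno2 together, Eno1 made up 97.6% and Eno2 2.36%. Ldha made up 83.0% of the lactate dehydrogenase TPM against 17.0% for Ldhb. All these shares cover the members of a step only. The enolase Eno3, outside the set, had 35.0 to 50.9 CPM, above Eno2 (20.8 to 25.7 CPM) in every library, in units not corrected for length. Library by library, the share of Ldha lay between 82.7% and 83.2% and that of Hk1 between 52.4% and 53.5%. The phosphofructokinases varied more, with Pfkl between 44.1% and 49.9% and Pfkm between 36.7% and 41.7%, and the PEDF library of experiment 1 had the highest share of Pfkl and the lowest of Pfkm.

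**Figure D1:**
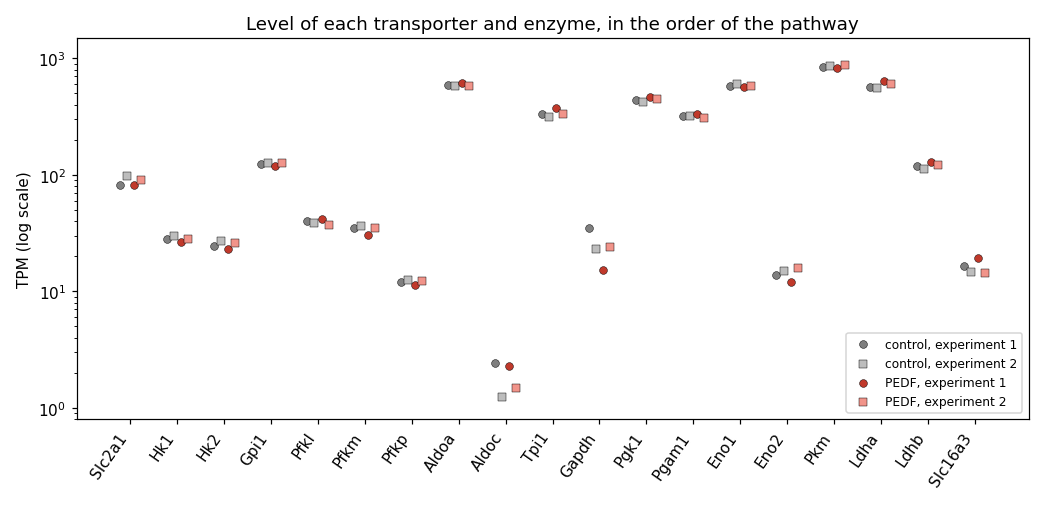
TPM on a log scale (vertical axis) for the glucose transporter Slc2a1, the glycolytic enzymes and the lactate transporter Slc16a3, in the order of the pathway (horizontal axis), with a point for each of the 4 libraries, grey for control, red for PEDF, circles for experiment 1 and squares for experiment 2. The 4 points of a gene lie close together for most genes, and Gapdh, listed at 15.3 to 35.2 TPM, lies far below its neighbours Tpi1 and Pgk1.

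The comparison of PEDF with control asked whether PEDF altered the mRNA of these genes within 24 h. In the quasi-likelihood test of edgeR with treatment as the only term, 0 of the 37 rows had an adjusted p under 0.05, compared with 0.00516% of the 19384 genes tested, and 1 of them, Ldha, had an unadjusted p under 0.05, compared with 6.88% of all genes. All 37 rows had enough counts to be tested. DESeq2 likewise gave 0 rows with an adjusted p under 0.05 and Ldha alone with an unadjusted p under 0.05, although it set no adjusted p for 23 of the 37. The log2 fold changes ranged from -0.55 (Gapdh) to 0.76 (the second Aldoa row, 4 to 21 counts per library), with a median of 0.01 against 0.00 over all genes tested. Of the 33 rows with a mean of at least 8 CPM, 87.9% lay within 0.2 of 0, and so did 86.0% of all genes at that level. Within the experiments, 11 rows had a higher CPM with PEDF in both and 10 a lower CPM in both, while 16 went opposite ways. The corresponding background over all genes was 30.1% and 28.8%.

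**Figure D2:**
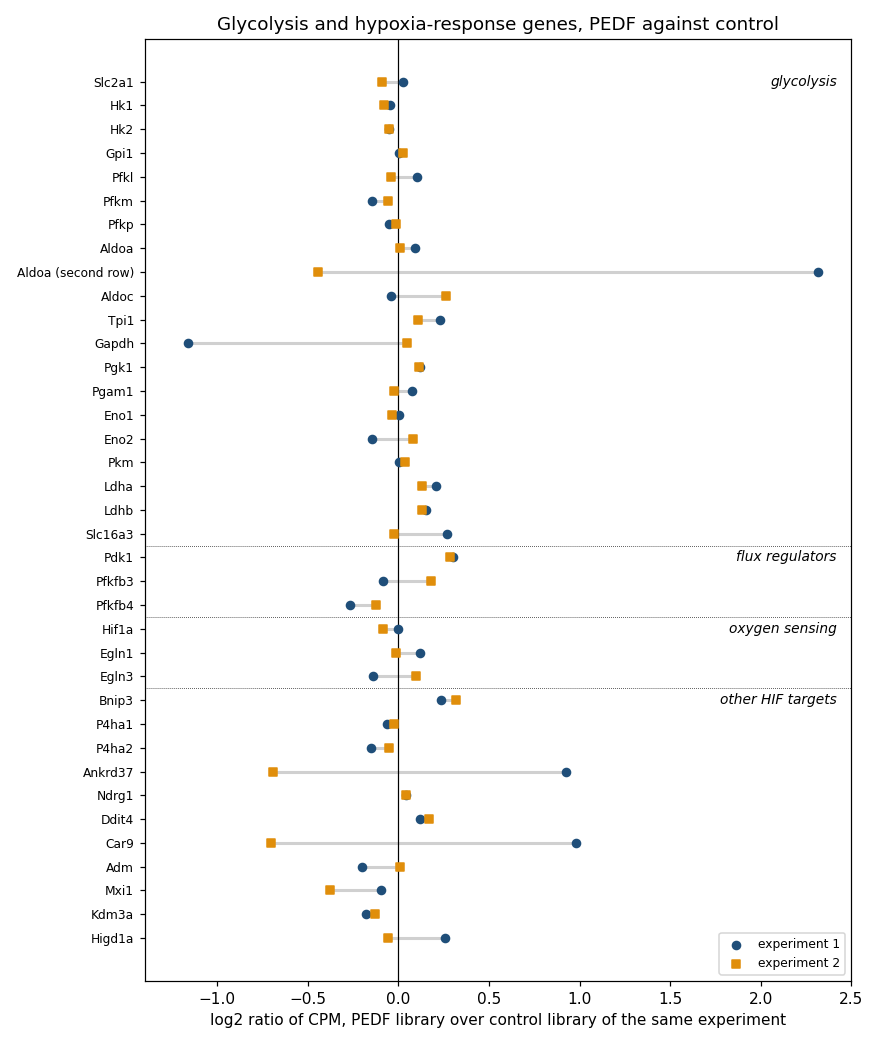
The log2 ratio of CPM in the PEDF library over the control library of the same experiment (horizontal axis) for each of the 37 rows (vertical axis, grouped by role), with blue circles for experiment 1, orange squares for experiment 2 and a grey line joining them. Most pairs lie near 0. The wide pairs belong to Gapdh (-1.16 and 0.05) and to rows of few counts, the second Aldoa row, Ankrd37 and Car9.

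When the experiment entered the edgeR model as a block, so that libraries of the same MEF preparation were compared, Ldha and Tpi1 were called higher with PEDF, in both experiments, and Gapdh was called lower, although it was lower in experiment 1 alone. These are 2 rows called higher, compared with 1.67% of all genes, and 1 called lower, compared with 2.07%. With 1 library per treatment and experiment, the standard errors of this fit come largely from spread shared over all genes. They and the p-values do not measure how far the 2 experiments differed for a gene. In the following, each of the called rows is described in turn, beginning with Ldha and Tpi1.

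Ldha (ENSMUSG00000063229, chromosome 7, 46841475 to 46855627 on the plus strand of GRCm38) had 672 and 633 CPM in control MEFs (experiments 1 and 2, the order kept throughout) and 775 and 693 CPM in the PEDF libraries. Both PEDF libraries were above both control libraries, with means of 653 ± 27.6 (SD, n = 2) and 734 ± 58.3 CPM (SD, n = 2). The log2 fold change was 0.17 (standard error 0.08, 95% interval 0.01 to 0.33), with an unadjusted p of 0.0398 and an adjusted p of 0.713 in edgeR's quasi-likelihood test. With the block the log2 fold change was also 0.17 (standard error 0.04, edgeR adjusted p = 0.00579), a 1.12-fold difference, and the call was kept in a block model corrected for length and GC content (0.14, edgeR adjusted p = 0.0234), in which 1.01% of all genes were called higher. It was not reached in DESeq2 with the block (adjusted p = 0.0861), and without the block the log2 fold change lay between 0.08 (without PEDF replicate 1) and 0.25 (without PEDF replicate 2) as each library was left out. Ldhb, the subunit that predominates in heart, had 66.7 and 61.1 CPM in the control libraries and 74.1 and 66.8 CPM in the PEDF libraries, a log2 fold change of 0.14 (standard error 0.08) that had no adjusted p under 0.05 with or without the block.

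Tpi1 (ENSMUSG00000023456, chromosome 6, 124810586 to 124814296, minus strand) had 323 and 296 CPM in the control libraries and 379 and 319 CPM in the PEDF libraries. PEDF was above control in both experiments, but the PEDF library of experiment 2 was below the control library of experiment 1, so the groups overlapped. The log2 fold change was 0.17 (standard error 0.08, edgeR adjusted p = 0.719) without the block and 0.17 (standard error 0.05, edgeR adjusted p = 0.00974) with it. After the length and GC trends were removed the log2 fold change was 0.13 (edgeR adjusted p = 0.0588), and in DESeq2 with the block it was 0.17 (adjusted p = 0.213). Leaving out a library moved the value without the block to between 0.05 (without PEDF replicate 1) and 0.29 (without PEDF replicate 2). Tpi1 overlaps Spsb2 on the other strand, which had 153 to 244 counts per library.

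The starts of Ldha and Tpi1 are shown because HIF binds the core sequences ACGTG and GCGTG, in which these genes differ. The sequences are the 250 bases before the RefSeq start site and the first 5 after it (GRCm38.p6), read 5′ to 3′ on the strand of the gene, with each core on either strand in capitals. CACGTG holds a core on both strands and counts as 2. The stretch of Ldha lies at chr7:46845554-46845808 on the plus strand, 4329 bases inside the counted gene from its 5′ end, and that of Tpi1 at chr6:124814154-124814408 on the minus strand.
Ldha: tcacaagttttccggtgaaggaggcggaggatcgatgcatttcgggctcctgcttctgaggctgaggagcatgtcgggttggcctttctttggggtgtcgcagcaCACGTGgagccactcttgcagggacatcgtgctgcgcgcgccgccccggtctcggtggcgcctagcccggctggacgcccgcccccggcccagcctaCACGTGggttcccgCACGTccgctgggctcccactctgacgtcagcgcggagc
Tpi1: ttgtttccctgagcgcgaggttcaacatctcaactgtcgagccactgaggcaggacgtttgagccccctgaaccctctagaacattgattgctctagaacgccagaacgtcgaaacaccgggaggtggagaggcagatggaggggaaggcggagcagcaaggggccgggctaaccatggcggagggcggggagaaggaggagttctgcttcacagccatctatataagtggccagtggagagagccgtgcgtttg
Ldha holds 5 cores in this stretch and Tpi1 holds 0. In the full window, from 250 bases before the start to 50 after it, Ldha had 7. Over the 35 symbols with a window (Ndrg1 is named only), 28 (80.0%) held at least 1 core, compared with 60.4% of the windows of 12781 tested genes, and 21 (60.0%) held 2 or more, compared with 32.1%. The windows of Aldoa, Eno2, Gpi1, Hk1, Mxi1, Pkm and Tpi1 held none. These are matches of letters and were not tested for binding.

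Gapdh, glyceraldehyde-3-phosphate dehydrogenase, works between Tpi1 and Pgk1 and was listed far below both, at 35.2 and 23.2 TPM in the control libraries and 15.3 and 23.8 TPM in the PEDF libraries. The row (ENSMUSG00000057666, chromosome 6, 125161715 to 125166467, minus strand) had 51.6 and 33.1 CPM in the control libraries and 23.1 and 34.2 CPM in the PEDF libraries. Experiment 1 gave a log2 ratio of -1.16 and experiment 2 one of 0.05, and the groups overlapped. The log2 fold change was -0.55 (standard error 0.37, edgeR adjusted p = 0.818) without the block. With the block it was -0.53 (standard error 0.09, edgeR adjusted p = 1.49e-07), and with the length and GC trends removed it was -0.54, with a standard error of 0.60 and an edgeR adjusted p of 0.896. The standard error of 0.09 and its p-value do not measure the spread between the experiments, whose ratios were -1.16 and 0.05. DESeq2 with the block set no adjusted p for Gapdh. As each library was left out, the value without the block lay between -0.87 and -0.20, the latter without control replicate 1.

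The Gapdh mRNA shares its sequence with many processed pseudogenes, and the authors counted uniquely mapped reads. Of the 50-base stretches in its coding sequence, 94.2% also occur in transcripts of other genes in GENCODE M21. The stretch found in the most genes, 84 besides Gapdh, is shown as an example of a sequence without a unique place. It covers coding bases 493 to 542, in exon 4 of 7 of the longest coding transcript, at chr6:125162898-125162947 on the minus strand of GRCm38, in lower case throughout because no base is marked.
Gapdh: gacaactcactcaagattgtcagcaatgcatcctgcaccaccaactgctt
In 29 other genes at least 50% of the coding stretches occur, and 28 of these had counts. Together they held 3780 and 3915 counts in the control libraries and 4364 and 4491 counts in the PEDF libraries, more than Gapdh itself (762, 590, 359 and 609 counts in the same order). The processed pseudogene Gm5559 (chromosome 5, 95861714 to 95862715) alone had 2582, 2692, 3061 and 3202 counts, and Gm7336 (chromosome 7, 51746647 to 51747878) had 1012, 1044, 1104 and 1030 counts. Gm5559 rose with the block, by 0.21 on the log2 scale (standard error 0.05, edgeR adjusted p = 0.00173), opposite in sign to Gapdh. When the counts of Gapdh and its 29 near copies were added, a choice made after seeing the data, the sum was 308 and 253 CPM in the control libraries and 304 and 286 CPM in the PEDF libraries. Its log2 fold change was 0.08 without the block (standard error 0.09, edgeR adjusted p = 0.888) and 0.08 with it (standard error 0.05, edgeR adjusted p = 0.428). Gapdh held a small part of this sum in every library, so the sum says little about the Gapdh row itself. The part of shared reads in the Gapdh row was not tested.

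**Figure D3:**
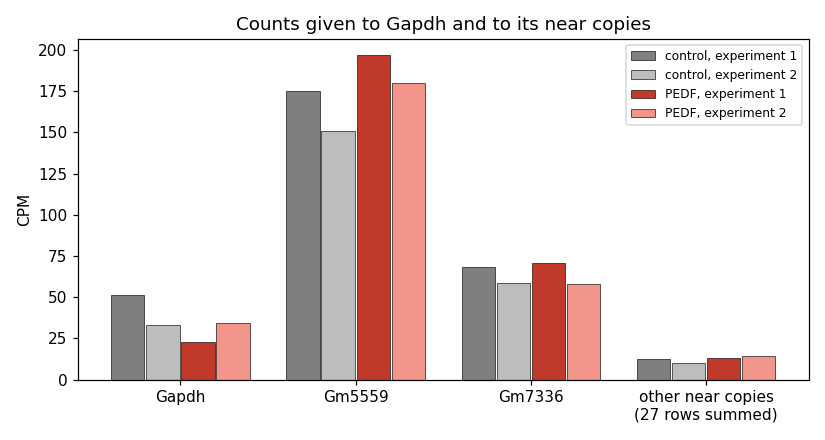
CPM (vertical axis, from 0) in each of the 4 libraries for the Gapdh row, the processed pseudogenes Gm5559 and Gm7336, and the other 27 near copies of Gapdh summed, with grey bars for control and red bars for PEDF. Gm5559 lies above Gapdh in every library, and the decrease of Gapdh with PEDF in experiment 1 is not seen in the copies.

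Shared sequence was not limited to Gapdh. All coding 50-base stretches of Pgk1 and Pgam1 occur in other genes (100%), as do 83.3% of those of Eno1, 76.8% of those of the HIF target Bnip3 and 52.9% of those of Pkm. Unlike Gapdh, Pgk1, Pgam1, Eno1 and Bnip3 held far more counts than their near copies, and Pkm had none by this limit. Pgk1 had 5162 to 6258 counts per library, and its 2 near copies together 9 to 20. Eno1 had 16436 to 19878 counts and its 2 near copies together 387 to 491. Reads with more than 1 place, which the counting left out, could not be measured from the counts, so the levels of these genes are uncertain.

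For the other glycolytic genes no adjusted p was under 0.05, with the block or without it. Pgk1 had 350 and 325 CPM in the control libraries and 380 and 351 CPM in the PEDF libraries, and the groups were just apart (log2 fold change 0.12, standard error 0.07). Pkm (ENSMUSG00000032294, chromosome 9, 59656368 to 59679375) had 1497 and 1483 CPM in the control libraries and 1499 and 1518 CPM in the PEDF libraries, a log2 fold change of 0.02 (standard error 0.07, edgeR adjusted p = 0.973). Aldoa (ENSMUSG00000030695, chromosome 7, 126795234 to 126800751) had 616 and 586 CPM in the control libraries and 657 and 589 CPM in the PEDF libraries, a log2 fold change of 0.05 (standard error 0.07, edgeR adjusted p = 0.913). The 95% interval of Pkm, -0.13 to 0.17, shows the size of difference that 2 libraries a group leave possible for an abundant gene. Slc2a1 (-0.04), Hk1 (-0.06), Hk2 (-0.05), Gpi1 (0.01), Pfkl (0.03), Pfkm (-0.10), Pfkp (-0.03), Pgam1 (0.03), Eno1 (-0.02), Eno2 (-0.02) and Aldoc (0.08) had log2 fold changes within 0.1 of 0. The lactate exporter Slc16a3 (MCT4) was higher with PEDF in experiment 1 (31.1 and 37.4 CPM) and not in experiment 2 (26.9 and 26.4 CPM), which gave a log2 fold change of 0.14 (standard error 0.15).

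Over all 37 rows, 5 had PEDF libraries wholly above the control libraries, namely Gpi1, Pgk1, Pkm, Ldha and Ldhb, compared with 18.9% of all genes. Another 8 had PEDF libraries wholly below them (Hk1, Pfkm, Pfkp, Pfkfb4, P4ha1, P4ha2, Mxi1 and Kdm3a), compared with 18.4% of all genes. Some of these differences were very small, and those of Gpi1 and Pkm changed sign in limma on log2(TPM + 1), as those of Hk1 and Pfkp did with the block and the length and GC correction. All but Ldha lacked an adjusted p under 0.05 in the edgeR fits with the block.

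Pdk1, pyruvate dehydrogenase kinase, inhibits pyruvate dehydrogenase in the mitochondria, which limits the conversion of pyruvate to acetyl-CoA, and was the member with a log2 ratio of at least 0.25 in both experiments (ENSMUSG00000006494, chromosome 2, 71873224 to 71903858). It had 14.6 and 9.14 CPM in the control libraries and 18.0 and 11.1 CPM in the PEDF libraries. The PEDF library was higher in each experiment, with log2 ratios of 0.30 and 0.28, but PEDF in experiment 2 was below control in experiment 1, so the groups overlapped. The log2 fold change was 0.30 without the block (standard error 0.30, edgeR adjusted p = 0.876) and 0.29 with it (standard error 0.14, edgeR adjusted p = 0.273), and as each library was left out it lay between -0.09 and 0.66. The kinases that set fructose-2,6-bisphosphate, an activator of phosphofructokinase, did not move together. For Pfkfb3 the log2 fold change was 0.05 (standard error 0.11), with opposite signs in the experiments, and for Pfkfb4 it was -0.19 (standard error 0.15), with 11.4 and 10.8 CPM in the control and 9.46 and 9.93 CPM in the PEDF libraries.

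Among the oxygen-sensing genes, Hif1a (ENSMUSG00000021109, chromosome 12, 73901375 to 73947530) had 227 and 223 CPM in the control libraries and 227 and 211 CPM in the PEDF libraries. The groups overlapped, and the PEDF library of experiment 2 was the lowest. The log2 fold change was -0.04 (standard error 0.07, 95% interval -0.19 to 0.10, edgeR adjusted p = 0.922), and -0.05 with the block (standard error 0.05, edgeR adjusted p = 0.760). Hif1a overlaps the antisense gene Gm15283, which had 466 to 617 counts per library, and the strand setting of the counting was not given in the sources used here. The log2 fold change of Egln1, the main oxygen sensor among the hydroxylases, was 0.05 (standard error 0.08), and that of Egln3, itself a HIF target, was -0.01 (standard error 0.16).

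The other HIF targets had no common direction. Bnip3, which promotes removal of mitochondria, had 16.4 and 11.3 CPM in the control libraries and 19.3 and 14.0 CPM in the PEDF libraries. It was higher with PEDF in each experiment, and the groups overlapped, with a log2 fold change of 0.27 (standard error 0.19, edgeR adjusted p = 0.795). With the block the standard error was 0.13 and the edgeR adjusted p 0.266. Bnip3 overlaps the antisense gene Gm45507, which had 95 to 144 counts per library, beside 201 to 300 counts of Bnip3. Ddit4, an inhibitor of mTORC1 signaling, had 71.3 and 61.1 CPM in the control libraries and 77.5 and 68.8 CPM in the PEDF libraries (log2 fold change 0.14, standard error 0.09). The procollagen prolyl hydroxylase subunits P4ha1 (-0.04) and P4ha2 (-0.10), the histone demethylase Kdm3a (-0.15) and the Myc antagonist Mxi1 (-0.23, standard error 0.15) were lower with PEDF in both experiments, none with an adjusted p under 0.05. Mxi1 overlaps Gm10197 on the other strand, which had 54 and 56 counts in the control libraries and 29 and 30 counts in the PEDF libraries. Adm, which encodes the vasodilator peptide adrenomedullin, had a log2 fold change of -0.09, Higd1a, a mitochondrial protein, one of 0.10 and Ndrg1 one of 0.04. The hypoxia markers Car9 and Ankrd37 rested on few counts. Car9, carbonic anhydrase 9, had 0.88 and 2.47 CPM in the control libraries and 1.74 and 1.52 CPM in the PEDF libraries, and Ankrd37 had 0.54, 1.18, 1.03 and 0.73 CPM in the same order. In both genes the PEDF library was higher in experiment 1 and lower in experiment 2.

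**Figure D4:**
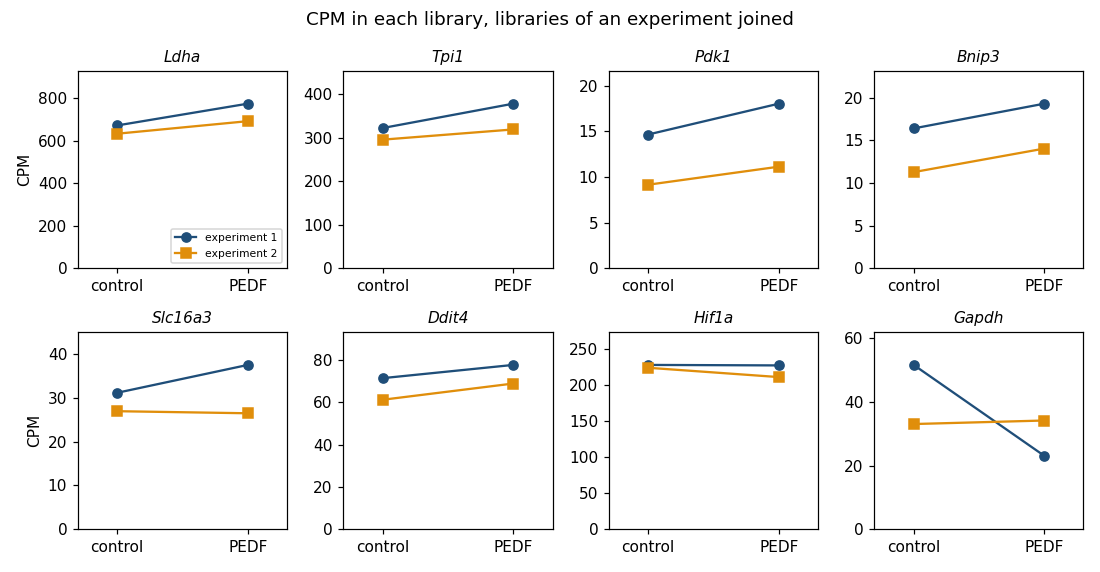
CPM (vertical axes, from 0) in the control and the PEDF library of experiment 1 (blue circles) and of experiment 2 (orange squares), libraries of an experiment joined, for 8 genes. Ldha, Tpi1, Pdk1, Bnip3 and Ddit4 are higher with PEDF in both experiments, the line of experiment 1 lies above that of experiment 2 for Ldha, Tpi1, Pdk1, Bnip3, Slc16a3, Ddit4 and Hif1a, and the lines of Gapdh cross.

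The experiments, each with its own MEF preparation, were then compared with each other, which gives the spread that the treatment is set against. Any difference in culture or library handling between the experiments cannot be told apart from that of the embryos. Without a term for the treatment, 0 of the 37 rows had an adjusted p under 0.05 between the experiments in edgeR (0.0567% of all genes), and 7 had an unadjusted p under 0.05 (7.67% of all genes). These were Pfkl, Aldoc, Tpi1, Slc16a3, Pdk1, Bnip3 and Ddit4. DESeq2 gave 0 and 4 rows at these limits, of 9 and 471 genes in all. With the treatment as a term, 5 rows were lower in experiment 2 than in experiment 1, compared with 2.19% of all genes, and 0 were higher, compared with 2.30%. The standard errors of this fit have the limit given for the block. Among these 5 rows Pdk1 differed most, with a log2 fold change of -0.69 between the experiments (standard error 0.14, edgeR adjusted p = 5.5e-05), that is, 1.61-fold more in experiment 1. Next were Bnip3 at -0.50 (standard error 0.13, edgeR adjusted p = 0.00447), Slc16a3 at -0.36 (standard error 0.09, edgeR adjusted p = 0.00419), Ddit4 at -0.20 (standard error 0.06, edgeR adjusted p = 0.0452) and Tpi1 at -0.19 (standard error 0.05, edgeR adjusted p = 0.00287).

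Differences between the preparations were thus larger than those with PEDF in fitted size for Pdk1, Bnip3 and Slc16a3, although the difference of these sizes was not tested. They were slightly larger for Ddit4 (-0.20 against 0.15 with PEDF in the block fit) and Tpi1 (-0.19 against 0.17). Pdk1, Bnip3, Slc16a3, Ddit4 and Tpi1 are known targets of HIF, and the other members among its targets had no adjusted p under 0.05 in this fit and no common direction. Ldha was at -0.12 (standard error 0.04, edgeR adjusted p = 0.0695), Aldoa at -0.11 and Pgk1 at -0.11, whereas Slc2a1 was at 0.14 (standard error 0.06, edgeR adjusted p = 0.138) and Ndrg1 at 0.11. Over all 37 rows the median was -0.04. Hif1a itself was at -0.07 (standard error 0.05, edgeR adjusted p = 0.590).

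The promoters of Pdk1 and Bnip3, which had the largest differences among the 5 rows called between the preparations, are shown in the same way, at chr2:71872974-71873228 on the plus strand and at chr7:138909502-138909756 on the minus strand. Capitals again mark the HIF cores on either strand.
Pdk1: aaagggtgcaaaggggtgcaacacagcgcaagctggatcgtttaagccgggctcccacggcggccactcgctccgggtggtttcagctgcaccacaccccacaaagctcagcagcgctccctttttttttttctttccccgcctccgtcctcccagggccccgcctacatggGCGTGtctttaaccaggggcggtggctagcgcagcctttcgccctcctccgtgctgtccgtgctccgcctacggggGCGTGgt
Bnip3: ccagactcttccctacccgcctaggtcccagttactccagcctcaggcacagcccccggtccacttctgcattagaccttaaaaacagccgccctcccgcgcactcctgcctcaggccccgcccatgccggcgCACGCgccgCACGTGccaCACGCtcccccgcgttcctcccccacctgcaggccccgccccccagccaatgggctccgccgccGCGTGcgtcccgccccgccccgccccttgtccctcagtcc
Pdk1 holds 2 cores in this stretch and Bnip3 holds 5. Slc16a3 and Ddit4 also held 2 each in their windows, and Tpi1, which differed in the same direction, held none.

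Markers of other cells also differed between the preparations. Of 6 macrophage markers, 5 were lower in experiment 2 under both treatments, with summed levels of 127 to 131 CPM in experiment 1 and 83.6 to 106 CPM in experiment 2, and Lyz2, lysozyme, had an adjusted p under 0.05. For epithelial markers the number was also 5 of 6, with 55.5 to 56.7 CPM in experiment 1 and 42.6 to 43.5 CPM in experiment 2, and Krt8 was called. All 10 fibroblast markers were higher in experiment 2 under both treatments, and 4 of them were called (Col1a1, Pdgfrb, Fn1 and Fbn1). Skeletal muscle markers were higher in experiment 2 in 4 of 6, with Acta1 and Myh3 called. Over all genes tested, 28.9% were lower and 29.4% higher in experiment 2 under both treatments. The part of these cells in the differences of Pdk1, Bnip3 and the other members was not tested.

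Related genes outside the set were read from lists in the same fits, and without the block 0 genes of the 5 lists reached an adjusted p under 0.05. Of 28 further genes of glycolysis and sugar transport, 3 had an unadjusted p under 0.05 in edgeR without the block, compared with 6.88% of all genes. Eno3, the muscle enolase, was called with the block. Its levels were 39.6 and 35.0 CPM in the control libraries and 44.0 and 50.9 CPM in the PEDF libraries, a rise of 0.35 on the log2 scale (standard error 0.08, edgeR adjusted p = 0.000553), while DESeq2 with the block called 0 genes of this list. Beside it, 4 of 6 skeletal muscle markers were higher with PEDF in both experiments, compared with 30.1% of all genes. Des and Acta1 rose with the block (Acta1 not with length and GC content corrected, edgeR adjusted p = 0.197), compared with 1.67% of all genes. Of 6 macrophage markers, Lyz2 alone was called with the block (0.39, edgeR adjusted p = 2.01e-05). It was not called with length and GC content corrected (edgeR adjusted p = 0.433). The part of muscle cells in the rise of Eno3 was not tested. Of 13 genes of the pyruvate dehydrogenase complex and its regulators, none was called and 0 had an unadjusted p under 0.05. Taldo1, transaldolase, was the 1 gene called with the block among 10 of the pentose phosphate pathway (log2 fold change 0.16, edgeR adjusted p = 0.0488). It was not called with length and GC content corrected (edgeR adjusted p = 0.268), and DESeq2 with the block called 0 genes of this list.

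Of 20 other genes of oxygen sensing, Rack1, a ribosomal scaffold protein that also promotes degradation of HIF-1alpha, rose with the block by 0.21 on the log2 scale (standard error 0.04, edgeR adjusted p = 6.19e-05). Epas1, which encodes HIF-2alpha, had 6.57 and 6.90 CPM in the control libraries and 9.20 and 7.58 CPM in the PEDF libraries, with an edgeR adjusted p of 0.416 with the block. Of 51 further HIF targets, 2 rose and 3 fell with the block, compared with 1.67% and 2.07% of all genes. DESeq2 with the block called 1 of these 51 genes, Loxl2. The rises were those of the metallothionein Mt1 (0.33, edgeR adjusted p = 0.0391) and of Fam162a, a mitochondrial protein (0.28, edgeR adjusted p = 0.0120), and with length and GC content corrected their edgeR adjusted p was 0.166 and 0.134. The falls included those of the lysyl oxidase Loxl2 (-0.31, edgeR adjusted p = 1.47e-09) and of Wsb1, a ubiquitin ligase subunit (-0.25, edgeR adjusted p = 0.000162). In the comparison of preparations with treatment as a term, 8 of these 51 targets were higher in experiment 2 (2.30% of all genes), among them Vegfa and Loxl2, and 1 was lower (2.19% of all genes), Bnip3l, a relative of Bnip3. Of the fibroblast markers, Fn1, Fbn1, Col1a1, Pdgfrb and Col1a2 fell with PEDF with the block, as Loxl2 did, and whether their changes are linked was not tested. With length and GC content corrected, 4 of these markers were called and Col1a2 was not (edgeR adjusted p = 0.918).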

How the data were processed

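Deposited counts are the authors' featureCounts output for uniquely mapped reads after trimming and HISAT2 alignment, and were not normalized. The submitters' processing notes name Trimmomatic 0.38, HISAT2 2.1.0, SAMtools 1.9, featureCounts 1.6.3 and mm10. The annotation and the strand setting were not given in the sources used here. The authors also deposited TPM, used here for levels between genes.

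The comparisons used edgeR 4.0.16 in R 4.3.3 (TMM, robust quasi-likelihood test) on 19384 genes that had a total of 10 counts or more, over all of which p-values were adjusted (Benjamini-Hochberg). Libraries of an experiment share embryos by the labels. The differences between experiments in control and in PEDF libraries correlated at r = 0.423 over the 10722 genes whose mean log2 CPM exceeded 3 (genes are not independent replicates). The experiment was therefore also fitted as a block, alone and with natural splines of 5 degrees of freedom for gene length and GC content, in 19363 genes. Other alternatives were DESeq2 1.42.0 with and without the block, RLE factors, no filter, filterByExpr, limma 3.58.1 on log2(TPM + 1), and each library left out. Methods were run on simulated data with planted changes much larger than the differences reported here, which does not test them at these sizes.

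Near copies were genes holding at least 50% of a member's coding 50-base stretches in GENCODE M21. Promoter windows came from RefSeq (GRCm38.p6). The members and lists were chosen with earlier results of these data known. Every member is named. Values in every library and full statistics were to be given for Hif1a, for members past an adjusted p of 0.05 without or with the block or an unadjusted p of 0.05 without it, for members with log2 ratios of at least 0.25 in size and of the same sign in both experiments, and for the 3 members of highest TPM. List genes were named by adjusted p, and 1 of them is not reported here. Epas1, Vegfa, Gm5559, Gm7336 and the values of other members were chosen after their values were seen.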

Additional observations from a re-analysis of the deposited data

How the results depend on the processing

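The comparison of PEDF with control without a block gave no member with an adjusted p under 0.05 in edgeR, with RLE factors, with filterByExpr, with no filter on low counts, in DESeq2 with or without the block, in limma, and with each library left out. With the block there were 3 members, and 1 (Ldha) with length and GC content removed too. The block changed no other member's call. The median log2 fold change of the members was 0.01, 0.00163 in limma on log2(TPM + 1), and -0.028 to 0.0092 with each library left out. Over 444 values of the members under 12 alternatives, 38 changed sign, in 20 members, all without an adjusted p under 0.05, and 26 of them came from leaving out a library. Ankrd37 became 0.018 in DESeq2, 0.033 in limma, 0.031 with the block and 0.094 in DESeq2 with the block. Car9 became 0.030 in limma and 0.10 in DESeq2 with the block, and in limma Gpi1 became -0.0093 and Pkm -0.0061. With the block and length and GC content removed, Hk1 became 0.0091, Pfkp 0.069, Pgam1 -0.026 and Eno1 0.014. Gapdh summed with its near copies was 0.075 without and 0.081 with the block.
Without 1 of the libraries, log2 fold changes changed sign for Egln3 (-0.12 to 0.078), Ndrg1 (-0.013 to 0.099), Slc2a1 (-0.13 to 0.068), Pfkl (-0.087 to 0.15), Aldoc (-0.35 to 0.63), Pgam1 (-0.057 to 0.11), Eno2 (-0.19 to 0.12), Pdk1 (-0.086 to 0.66), Pfkfb3 (-0.040 to 0.14), Ankrd37 (-0.43 to 0.68), Car9 (-0.60 to 0.87), Aldoa (-0.028 to 0.13), Slc16a3 (-0.13 to 0.37), Higd1a (-0.018 to 0.22), Eno1 (-0.035 to 0.0022) and Hif1a (-0.099 to 0.0091).
Between the experiments, the 0 members called became 1 with no filter, 5 with treatment as a term and 0 to 2 with each library left out. Of the lists, glycolysis and the further HIF targets had 1 gene each with no filter and 0 to 1 with libraries left out. With the block, glycolysis, the pentose phosphate pathway and oxygen sensing had 1 gene each and the HIF targets 5, in DESeq2 with the block oxygen sensing and the HIF targets had 1 each, and with length and GC content removed glycolysis and oxygen sensing had 1 each and the HIF targets 2. The causes of these changes were not tested.

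With 2 libraries a group, the standard error of the log2 fold change of Pkm, the most abundant member, was 0.07 without and 0.04 with the block. The latter draws largely on spread shared over all genes. Car9, Ankrd37, Aldoc and the second Aldoa row rest on few counts.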
